A study of Mus musculus with 8 samples.

Results

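WFS1 ChIP-seq peaks were examined at 90 nuclear genes of the mitochondrial respiratory chain, chosen by symbol from the 20807 autosomal protein-coding genes of the GENCODE mouse annotation (GRCm38). Taken were all symbols starting with Nduf, Uqcr, Atp5 or Cox4 to Cox8, and Sdha to Sdhd, which gave 36 subunits and 8 assembly factors (Ndufaf genes) of complex I, 4 genes of complex II, 8 of complex III, 17 of complex IV and 17 of complex V. Ndufa4, whose product is now counted with complex IV, was grouped by its symbol. The peaks came from proliferating wildtype C2C12 cells, a line of mouse myoblasts, whose chromatin was fixed with disuccinimidyl glutarate (DSG) and formaldehyde and precipitated with an antibody to WFS1, a membrane protein of the endoplasmic reticulum that the study examined at the nuclear envelope. One library was made after 30 cycles of sonication and the other from part of the same precipitate after 36 cycles, so each condition had 1 library, neither was a replicate of the other, and no test between them was possible. The other 6 of the 8 libraries, inputs and libraries of WFS1 knockout cells that express WFS1-FlagTag, were not used here. The lists hold positions only, so the identity of the myoblasts could not be checked against marker genes, and the read depth is unknown. The 30-cycle list held 18283 peaks and the 36-cycle list 12674. Joined where they overlapped, they gave 22292 peaks, of which 7897 held peaks of both lists.

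The respiratory chain sits in the inner mitochondrial membrane. Complexes I and II pass electrons to ubiquinone, complex III hands them to cytochrome c, complex IV reduces oxygen, and complex V uses the resulting proton gradient to make ATP. Most subunits are encoded in the nucleus and a few in the mitochondrial genome, and promoters of the nuclear genes are known for sites of NRF1, of ETS factors such as GABP and of YY1. Several subunits of complex IV have separate heart and skeletal muscle isoforms.

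The share of respiratory chain genes with a peak at the start site was near that of genes at large. A joined peak lay within 1 kb of the start site in 10 of the 90 genes, or 11.1% (95% Wilson interval 6.15 to 19.3, as for all intervals here, which cover counting error only). Among all autosomal protein-coding genes the share was 13.8%. Among genes of like length, meaning the 5758 with lengths between the members' quartiles (4115 to 13247 bp), it was 10.7%. The genes were Ndufa12, Ndufb9, Ndufs1 and Ndufs7 of complex I, Uqcrb and Uqcrq of complex III, Cox5a of complex IV, and Atp5g2, Atp5h and Atp5l of complex V. None of the 8 assembly factors and none of the 4 complex II genes had such a peak, for which the intervals reach 32.4% and 49.0%. By complex, the counts were 4 of 36 complex I subunits, 2 of 8 complex III genes, 1 of 17 complex IV genes and 3 of 17 complex V genes, and the interval of every complex held 13.8%.

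**Figure D1:**
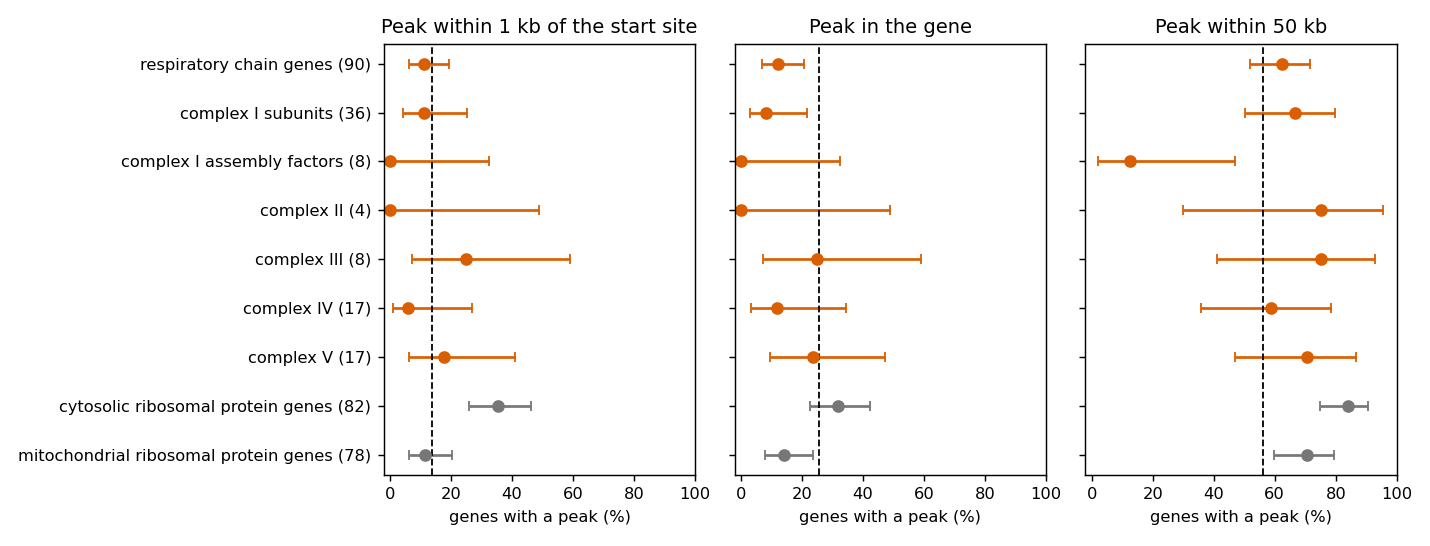
Share of genes (percent, x axes) with a joined WFS1 peak within 1 kb of the start site (left), in the gene (middle) and within 50 kb (right), with numbers of genes in brackets. Points are shares, bars are 95% Wilson intervals, and dashed lines are the shares among all autosomal protein-coding genes (13.8%, 25.6% and 56.1%). The respiratory chain genes as a whole lie near the line at start sites and within 50 kb, and the cytosolic ribosomal protein genes lie above it in both.

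The result was not the same in both lists. After 30 cycles, 10 members (11.1%) had a start-site peak, against 11.4% of all genes and 9.07% of the genes of like length. After 36 cycles, only Ndufs7 had one (1.11%, 0.196 to 6.03), against 6.29% of all genes and 4.78% of the genes of like length. The members' interval holds the share of genes of like length. Of the 15 joined peaks at member start sites, 14 were called after 30 cycles only, 1 in both lists and none after 36 cycles only. The share called after 30 cycles only was thus 93.3% (70.2 to 98.8) at member start sites and 55.6% (53.8 to 57.3) among the 3051 peaks at start sites of all protein-coding genes. The intervals treat the peaks as independent, although the 15 lie at 10 genes, with 3 at Atp5g2. Peaks at member start sites were also narrow, with a median width of 303 bp (242 to 577) against 349 bp. A joined peak of both lists spans both calls, so this width also depends on the split by list.

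Among CpG-rich start sites, the share with a peak was lower for members than for genes at large, although the members' interval still held the latter. A start site was called CpG-rich where the 500 bases to either side had a GC content of at least 55% and a ratio of observed to expected CpG of at least 0.6. This held for 51 of the 90 members (56.7%) and for 39.6% of all genes. A start-site peak was present at 6 of these 51 members (11.8%, 5.51 to 23.4) and at 23.2% of all CpG-rich start sites. The upper bound of the members' interval lies just above the share of all CpG-rich start sites.

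Other short genes of cell maintenance gave different values. Of 82 cytosolic ribosomal protein genes, 29 had a start-site peak (35.4%, 25.9 to 46.2), an interval that lies above that of the respiratory chain genes. Of 78 mitochondrial ribosomal protein genes, 9 had one (11.5%, 6.19 to 20.5), a share close to that of the members.

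Among complex I subunits, the widest start-site peak and the only one of both lists was at Ndufs7 (ENSMUSG00000020153), a core subunit that holds an iron-sulfur cluster next to the ubiquinone site. The peak covered the start site at chr10:80248897-80249473, was 577 bp wide after 30 cycles and 440 bp wide after 36 cycles, and was centred in an exon of the gene. The same stretch holds genes for tRNA-Phe and tRNA-Asn on either side of the Ndufs7 start site. The tRNA-Asn gene, at chr10:80249159-80249232, lies within the annotated span of Ndufs7. The part of the peak before the first exon of a predicted RefSeq transcript of Ndufs7, which begins 16 bases ahead of the start site used here, is shown on the Ndufs7 strand (chr10:80248897-80249104, plus strand), with the tRNA-Phe gene in capitals. That tRNA gene is on the minus strand, so the capitals are its reverse complement.
Ndufs7: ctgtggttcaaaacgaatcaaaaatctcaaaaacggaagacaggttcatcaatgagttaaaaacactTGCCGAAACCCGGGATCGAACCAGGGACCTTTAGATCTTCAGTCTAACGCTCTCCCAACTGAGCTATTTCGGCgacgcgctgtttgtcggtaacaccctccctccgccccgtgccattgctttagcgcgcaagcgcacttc
Near its end, the sequence also holds 1 match to the NRF1 motif, which is GCGCA, any base and GCGC. It holds 1 match each to the SP-factor motif GGGCGG and the RUNX motif TGTGGTT as well, counting both strands.

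The other complex I start-site peaks were called after 30 cycles only. Ndufa12, an accessory subunit, had a peak of 423 bp that began 156 bp downstream of its start site (chr10:94198876-94199298) and was centred in an exon of the gene. At Ndufb9, an accessory subunit of the membrane arm, the peak of 371 bp lay 151 bp upstream (chr15:58933235-58933605) and was centred in an exon of Tatdn1, whose start site on the opposite strand is 18 bp away. Ndufs1, the largest core subunit, had a peak of 242 bp that lay 341 bp upstream (chr1:63177174-63177415). Its centre lay in an intron of Eef1b2, a translation elongation factor gene that starts 8 bp away on the opposite strand. At Ndufb9 and Ndufs1, the peak was therefore not inside the respiratory chain gene.

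Both start-site peaks of complex III genes were of the 30-cycle list. Uqcrb encodes a small subunit near the ubiquinone site, and its peak of 261 bp covered the start site (chr13:66905143-66905403), with the centre in an exon of Gm10767, which starts 464 bp away on the other strand. The centre also lies within Uqcrb, 105 bp from its start site. Where exons of several genes overlap, the first by name was given, so the centre may lie in a Uqcrb exon as well. Uqcrq, another small subunit, had peaks of 303 and 321 bp centred in an intron, 161 and 964 bp downstream of the start site (chr11:53430368-53430670 and chr11:53429547-53429867). The second was the member peak just inside the limit of 1 kb. Just outside it was Uqcrh, the hinge subunit, with a peak of 482 bp at 1.08 kb, centred in an intron of Lrrc41 and called after 30 cycles only.

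In complex IV, Cox5a, a structural subunit of cytochrome c oxidase, was the only gene of 17 with a start-site peak. It had 1 peak of 298 bp 165 bp upstream (chr9:57520812-57521109) and another of 370 bp that began 67 bp downstream and was centred in an intron (chr9:57521341-57521710), both after 30 cycles only. The upstream peak held a match to the AP-1 motif TGANTCA near its outer edge, as did, in its centre, the peak at Ndufb9, and these were the only 2 of the 15 start-site peaks with one. In RefSeq, a predicted Cox5a transcript has an exon that begins within the peak. The part before that exon is given on the gene's strand (chr9:57520812-57521067, plus strand) with the match in capitals.
Cox5a: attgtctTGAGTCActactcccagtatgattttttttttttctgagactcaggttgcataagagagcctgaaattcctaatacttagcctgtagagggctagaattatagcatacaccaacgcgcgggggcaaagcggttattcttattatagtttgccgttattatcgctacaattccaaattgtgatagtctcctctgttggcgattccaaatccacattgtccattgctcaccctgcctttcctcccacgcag

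Complex V genes held 6 of the 15 start-site peaks, all called after 30 cycles only. Atp5g2 encodes subunit c, which forms the rotor ring, and had 3 peaks, of 310, 267 and 381 bp, at 448 bp downstream, over the start site and at 211 bp upstream (chr15:102671595-102671904, chr15:102672191-102672457 and chr15:102672563-102672943). The mature subunit c is also encoded by Atp5g1 and Atp5g3, and neither had a peak at the start site. For Atp5g1 the nearest peak was at 40.7 kb in the joined set, and for Atp5g3 at 317.9 kb. Atp5h, subunit d of the peripheral stalk, had a peak of 242 bp in an intron 157 bp downstream (chr11:115419564-115419805). Atp5l, subunit g of the membrane part, had peaks of 258 bp at 224 bp downstream and of 260 bp at 493 bp upstream (chr9:44920261-44920518 and chr9:44921235-44921494). Among protein-coding genes alone, the first was centred in an intron of Atp5l. Exons of genes of any type left no base of the first free and at most 5 bases in a row of the second. Atp5l was the only 1 of the 10 genes with annotated pseudogenes of its own name, and none of the 7 pseudogenes named for members had a peak over it.

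**Figure D2:**
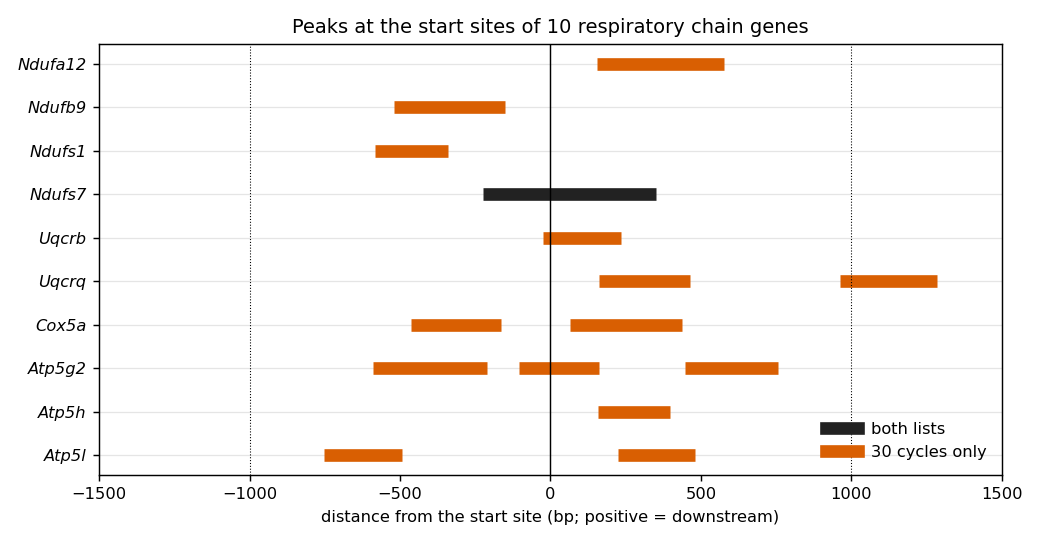
Position of the 15 joined peaks (bars, to scale) at the start sites of 10 respiratory chain genes, as distance from the start site in bp (x axis), with downstream to the right and dotted lines at 1 kb. Orange bars were called after 30 cycles only and the black bar, at Ndufs7, in both lists. Of the 15 peaks, 5 lay upstream, 3 over the start site and 7 downstream.

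Respiratory chain genes often started close to a gene on the other strand. An opposite-strand protein-coding start site lay within 1 kb for 33 of the 90 members (36.7%, 27.4 to 47.0), against 11.2% of all genes, and for 5 of the 10 with a start-site peak (Ndufb9, Ndufs1, Uqcrb, Uqcrq and Atp5h). At Ndufb9 and Ndufs1 the peak overlapped the partner gene and not the member, at Uqcrb it overlapped both genes, and at Uqcrq and Atp5h it overlapped the member alone. All of these peaks except the outer peak of Uqcrq, 1156 bp from the start site of Gdf9, also lay within 1 kb of the partner's start site.

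Peaks inside respiratory chain genes were less frequent than in all genes and near the share of genes of like length. A joined peak overlapped the gene in 11 of 90 members (12.2%, 6.96 to 20.6), against 25.6% of all genes. The members are short, with a median length of 7.57 kb against 17.6 kb, and among the 5758 genes with lengths between the members' quartiles (4115 to 13247 bp) the share was 11.9%. A peak in the gene more than 1 kb from the start site was found in 3 members (3.33%, 1.14 to 9.35), against 19% of all genes and 5.56% of the genes of like length. By list, 9 members had a peak in the gene after 30 cycles and 3 after 36 cycles, against 22.7% and 15.6% of all genes. Among the genes of like length, the shares were 9.92% and 5.87%, against 10% (5.35 to 17.9) and 3.33% (1.14 to 9.35) of the members.

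The 3 genes with such a peak were Ndufs4, Cox7a2l and Atp5d. Ndufs4, an accessory subunit of complex I whose loss in mice gives a fatal brain disease, had a peak of 246 bp in an intron 14.1 kb from its start site, called after 36 cycles only. Cox7a2l, which joins complexes III and IV into supercomplexes, had a peak of 231 bp centred in an intron at 2.86 kb (chr17:83514245-83514475), again after 36 cycles only. Atp5d, the delta subunit of the central stalk of complex V, had a peak of 837 bp at 2.58 kb, centred in an exon (chr10:80141210-80142046) and called after 30 cycles only. The peaks in Cox7a2l and Atp5d lay within 1 kb of the start of another annotated transcript of their gene, whereas the peak in Ndufs4 did not.

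The sequences of the 2 peaks called after 36 cycles only are shown because no member had a start-site peak of that kind. Both are on the strand of the gene, which is minus (chr13:114373878-114374123 for Ndufs4, the whole peak, and chr17:83514334-83514475 for Cox7a2l, its part outside exons). Capitals mark a match to TGANTCA in Ndufs4 and to the SP-factor motif GGGCGG in Cox7a2l.
Ndufs4: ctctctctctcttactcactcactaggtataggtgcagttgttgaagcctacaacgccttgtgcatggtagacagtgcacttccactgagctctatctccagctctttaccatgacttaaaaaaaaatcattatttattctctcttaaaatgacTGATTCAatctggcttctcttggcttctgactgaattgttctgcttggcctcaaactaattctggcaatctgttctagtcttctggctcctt
Cox7a2l: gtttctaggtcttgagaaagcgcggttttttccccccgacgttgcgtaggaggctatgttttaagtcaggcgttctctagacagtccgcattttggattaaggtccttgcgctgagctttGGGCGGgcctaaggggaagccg
The Ndufs4 sequence has a GC content of 41.5% and the Cox7a2l sequence of 53.5%.

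Within 50 kb of the start site, 56 of the 90 members had a joined peak (62.2%, 51.9 to 71.5), against 56.1% of all genes. The 30-cycle list gave 50 members (52.3% of all genes) and the 36-cycle list 36 members (37.9% of all genes). A peak held by both lists was within 50 kb of 29 members (32.2%, 23.5 to 42.4), against 28.9% of all genes. The members' median distance to the nearest peak was 38.4 kb (quartiles 12.5 to 76.0), and the median of all genes was also 38.4 kb (quartiles 8.90 to 114). Cytosolic ribosomal protein genes lay nearer, with a median of 13.1 kb and 84.1% within 50 kb, and mitochondrial ribosomal protein genes were at 28.5 kb and 70.5%.

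The assembly factors of complex I had the lowest share of all groups within 50 kb. A peak within 50 kb was found for 24 of 36 complex I subunits, 3 of 4 complex II genes, 6 of 8 complex III genes, 10 of 17 complex IV genes and 12 of 17 complex V genes. Of the 8 complex I assembly factors, it was found for Ndufaf8 alone (12.5%, 2.24 to 47.1), at 49.4 kb, and their median distance was 74.6 kb. The interval of the assembly factors does not reach the 56.1% of all genes, but it rests on 8 genes. Without them, 55 of 82 members (67.1%, 56.3 to 76.3) had a peak within 50 kb.

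**Figure D3:**
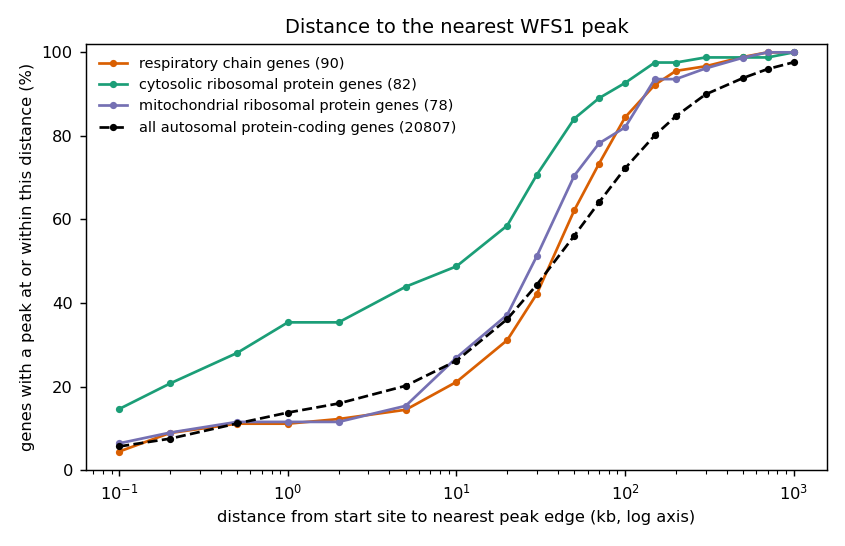
Cumulative share of genes (percent, y axis) by distance from the start site to the nearest joined peak (kb, log axis) for respiratory chain genes, both ribosomal protein lists and all autosomal protein-coding genes. Within 10 kb lay 21.1% of the members and 26.2% of all genes, and within 100 kb 84.4% and 72.2%, so the members' curve crosses that of all genes.

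The members' distances were less spread than those of all genes. Within 10 kb of a peak lay 19 members (21.1%), against 26.2% of all genes. Within 100 kb lay 76 members (84.4%), against 72.2% of all genes. The farthest members were Cox7c, a small complex IV subunit at 615.7 kb, Cox7b2, at 434.8 kb, and Atp5g3, at 317.9 kb.

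The number of peaks within 50 kb was close to that of genes at large, with a mean of 1.61 per member against 1.48 for all genes and a median of 1 in both. No peak was found near 34 members, 1 peak near 21, 2 to 4 peaks near 26, and 5 or more near 9. No peak lay within 50 kb of more than 1 member, so these were 145 separate peaks. Of the 130 peaks at 1 to 50 kb, 45 were held by both lists (34.6%, 27.0 to 43.1), 57 belonged to the 30-cycle list alone and 28 to the 36-cycle list alone, and 36.7% of such peaks around all protein-coding genes were held by both. Of the 130, 22 had a respiratory chain gene as the nearest protein-coding start site. By the place of their centre, 53 lay in introns, 18 in exons and 59 between protein-coding genes. Neither split was computed around other genes, so neither can set the members apart.

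**Figure D4:**
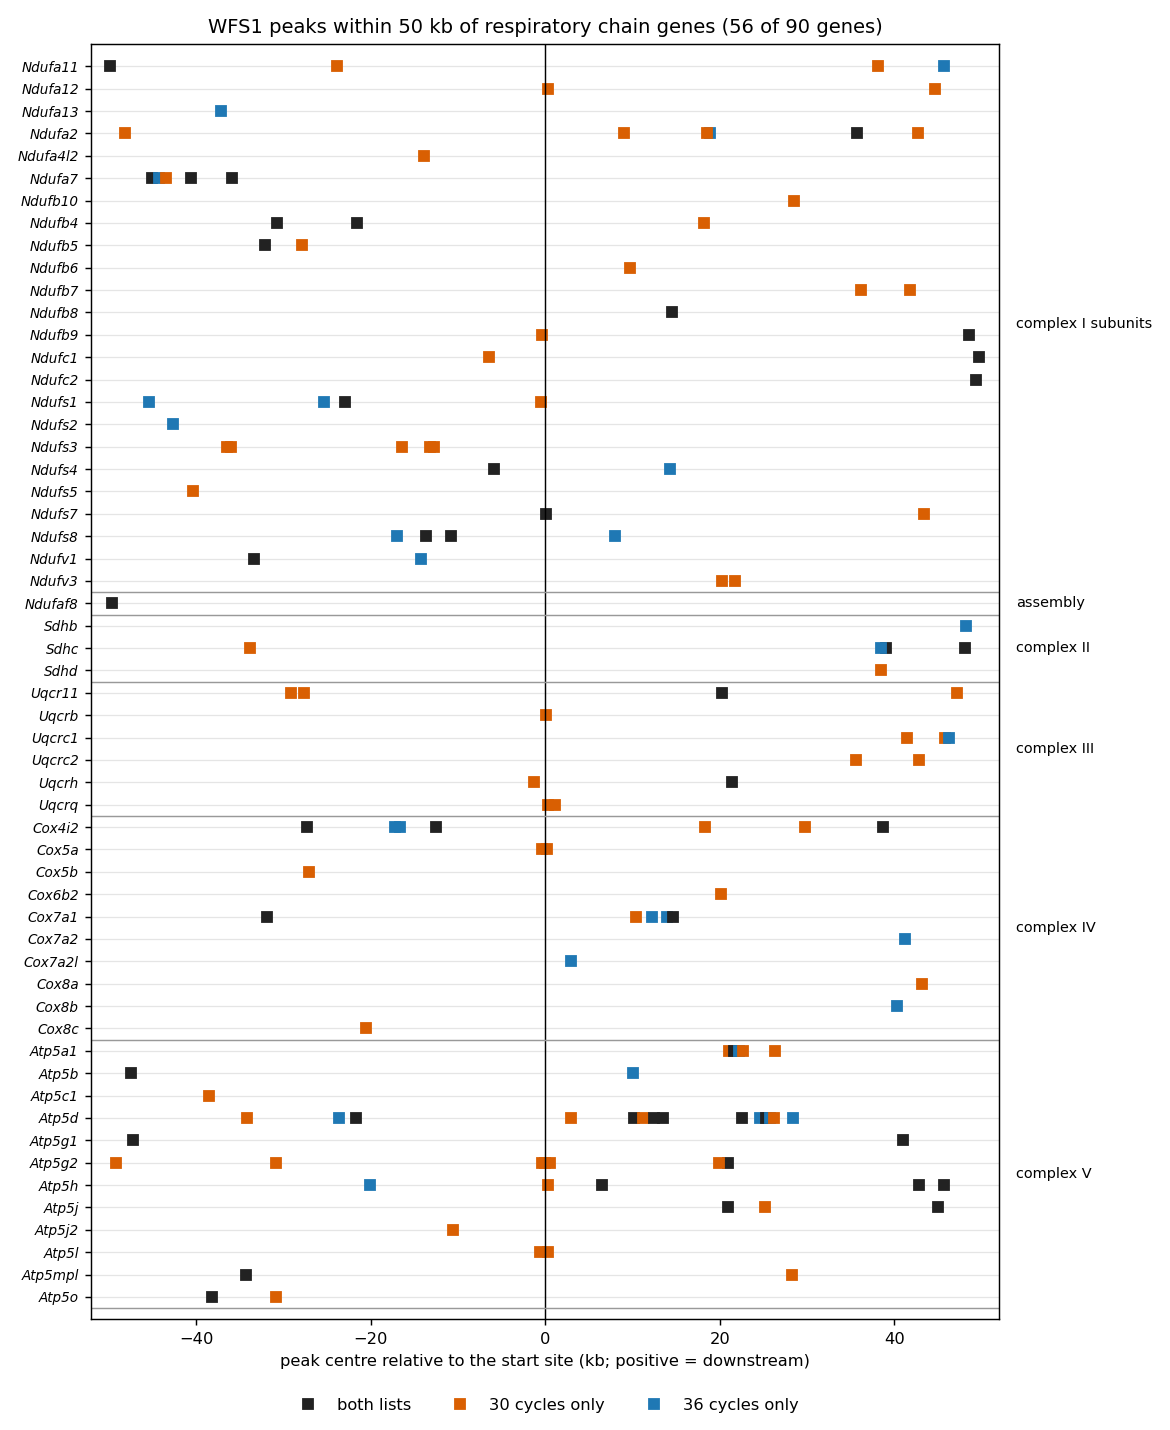
Centres of the joined WFS1 peaks (squares) relative to the start site (kb, x axis, downstream to the right) for the 56 respiratory chain genes with a peak within 50 kb, by complex. Black squares were called in both lists, orange after 30 cycles only and blue after 36 cycles only, and 14 of the 15 peaks at start sites are orange. Atp5d has the most peaks, 14, mostly downstream.

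Atp5d had the most peaks of any member, 14 within 50 kb, 11 of the 30-cycle list and 11 of the 36-cycle list, of which joining left 6 held by both. None of the 14 had Atp5d as the nearest start site. They lay nearest to Sbno2, Stk11, Cbarp, Midn and Cirbp, and the widest, 2231 bp at 21.5 kb, lay nearest to Cirbp, which encodes a cold-inducible RNA-binding protein. Atp5g2 had 7 peaks, and besides its start-site peaks a pair of peaks at 19.8 and 20.7 kb downstream also had Atp5g2 as the nearest start site.

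In complex I, Ndufa2, an accessory subunit, had 6 peaks within 50 kb and none nearer than 8.83 kb. They lay nearest to E230025N22Rik, Cd14, Tmco6 and Zmat2. Ndufa7 and Ndufs3 had 5 each. All 5 peaks of Ndufa7, an accessory subunit, were 35.4 kb or more upstream with Angptl4 as the nearest start site, a gene for a secreted inhibitor of lipoprotein lipase. Of the 5 peaks of the core subunit Ndufs3, which were all called after 30 cycles only, 3 at 12.5, 13.1 and 16.3 kb upstream had Ndufs3 itself as the nearest start site. Ndufs4 had, beside its intron peak, a peak of both lists 5.70 kb upstream, which was 242 bp wide after 30 cycles and 315 bp after 36 cycles and had Ndufs4 as the nearest start site.

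Complex II showed peaks only at a distance. Succinate dehydrogenase is also an enzyme of the citric acid cycle. Sdha, its flavoprotein, had no peak within 85.02 kb. Sdhb, the iron-sulfur subunit, had 1 peak at 48.0 kb after 36 cycles only, and Sdhd, a membrane anchor, 1 at 38.3 kb after 30 cycles only. Sdhc, the other anchor, had 4 peaks, of which the nearest was at 33.7 kb.

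In complex III, Uqcr11, a small subunit, had 4 peaks, nearest to Plk5, Mex3d and Tcf3, and the core protein Uqcrc1 had 3, nearest to Ucn2, at 41.3 kb or more.

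The muscle isoforms of complex IV subunits had 5, 1 or no peaks within 50 kb. Cox7a1, the heart and skeletal muscle form, had 5 peaks, the nearest at 10.1 kb, 4 of them around Capns1, a calpain subunit gene, and its widespread counterpart Cox7a2 had 1, at 41.0 kb. Cox6a2, the muscle form, had no peak within 86.8 kb, and the widespread Cox6a1 none within 76.0 kb. Cox8b, the muscle form, had 1 at 40.2 kb after 36 cycles only, and Cox8a 1 at 43.0 kb after 30 cycles only. Cox8c, a testis form, had 1 at 20.3 kb.

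The remaining isoforms varied as widely. Cox4i1, the widespread form of subunit IV, had no peak within 103.5 kb. Cox4i2, the form of lung and of low oxygen, had 7 peaks, the nearest at 12.3 kb upstream, of which the 4 upstream peaks lay nearest to Id1, a gene for an inhibitor of MyoD-type factors. Cox6b1 had none within 132.8 kb and the testis form Cox6b2 had 1 at 20.04 kb. Atp5a1, the alpha subunit of complex V, had 5 peaks at 20.9 to 26.2 kb, all centred in introns of Pstpip2.

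Several of the peaks that both lists held near members overlapped tRNA genes, which are transcribed by RNA polymerase III. Of the 46 peaks of both lists within 50 kb of a member, 5 overlapped an annotated tRNA gene (10.9%, 4.73 to 23.0), and of the 99 peaks of a single list none did (0%, up to 3.74). These were the start-site peak of Ndufs7, a peak of 966 bp near Ndufc1 with a tRNA-Pro gene, peaks of 1549 and 581 bp near Sdhc with 4 and 1 tRNA genes, and a peak of 1409 bp near Atp5h with 3 tRNA-Arg genes. The intervals treat the peaks as independent, although the peaks of 1549 and 581 bp both lie near Sdhc. The peak near Atp5h lay 5.82 kb downstream of its start site, beyond the end of the gene. It was 1409 bp wide after 30 cycles and 1164 bp after 36 cycles. A part of it is shown on the strand of Atp5h (chr11:115412868-115413167, minus strand), with 1 of the tRNA-Arg genes in capitals as the reverse complement.
Atp5h: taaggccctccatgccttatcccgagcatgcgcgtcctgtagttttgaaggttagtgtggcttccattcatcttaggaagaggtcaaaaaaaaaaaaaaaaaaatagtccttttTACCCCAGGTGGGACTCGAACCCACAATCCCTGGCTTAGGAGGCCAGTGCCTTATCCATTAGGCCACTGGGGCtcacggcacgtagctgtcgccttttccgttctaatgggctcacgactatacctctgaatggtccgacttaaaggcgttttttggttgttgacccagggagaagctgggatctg

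Peaks over tRNA genes were common in the whole data. Of 386 autosomal tRNA genes in the RefSeq annotation, 205 (53.1%, 48.1 to 58.0) lay under a joined peak, 200 under a peak of the 30-cycle list and 168 under a peak of the 36-cycle list. Of all autosomal peaks of both lists 1.52% overlapped a tRNA gene, and of peaks of a single list 0.212%. Among the 715 peaks of both lists at protein-coding start sites, 25 did (3.50%, 2.38 to 5.11). The median width of peaks over tRNA genes was 539 bp, against 378 bp for all peaks. Without the peaks that overlap tRNA genes, 9 members had a start-site peak and none had one of both lists. Whether the peak at Ndufs7 belongs to the tRNA genes or to Ndufs7 cannot be told apart by position.

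The promoters of the members held motifs known for these genes more often than promoters at large. RefSeq promoters of 300 bases, 250 before and 50 after the start, were matched for 73 of the 90 members and for 16029 of all genes, and were searched on both strands. For each gene the RefSeq start nearest to the start site used for peaks was taken, with no limit on their distance. The NRF1 motif (GCGCA, any base, GCGC) was in 18 of 73 member promoters (24.7%, 16.2 to 35.6), against 7.06% of all promoters and 12.8% of those that are CpG-rich. The YY1 motif AAGATGGCG was in 7 (9.59%, 4.72 to 18.5), against 2.02% and 3.22%. The motif AAGGTCA, bound by the oestrogen-related receptor ESRRA, was in 8 (10.96%, 5.66 to 20.2), against 3.87% and 2.24%. For these 3 motifs, the members' intervals lay above both shares.

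Other motifs did not follow this pattern. The ETS motif CCGGAAG was in 17 member promoters (23.3%, 15.1 to 34.2), above the 12.5% of all promoters but not apart from the 19.2% of CpG-rich ones. The SP-factor motif GGGCGG was in 34 (46.6%, 35.6 to 57.9), against 48.6% of all and 76.4% of CpG-rich promoters. The E-box CAGCTG was in 6 (8.22%, 3.82 to 16.8), against 15.3% of all promoters. AP-1 (TGANTCA) was in 6, against 7.12%, and the RUNX motif TGTGGTT in 2 (2.74%), against 4.80%. A promoter may count under several motifs.

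**Figure D5:**
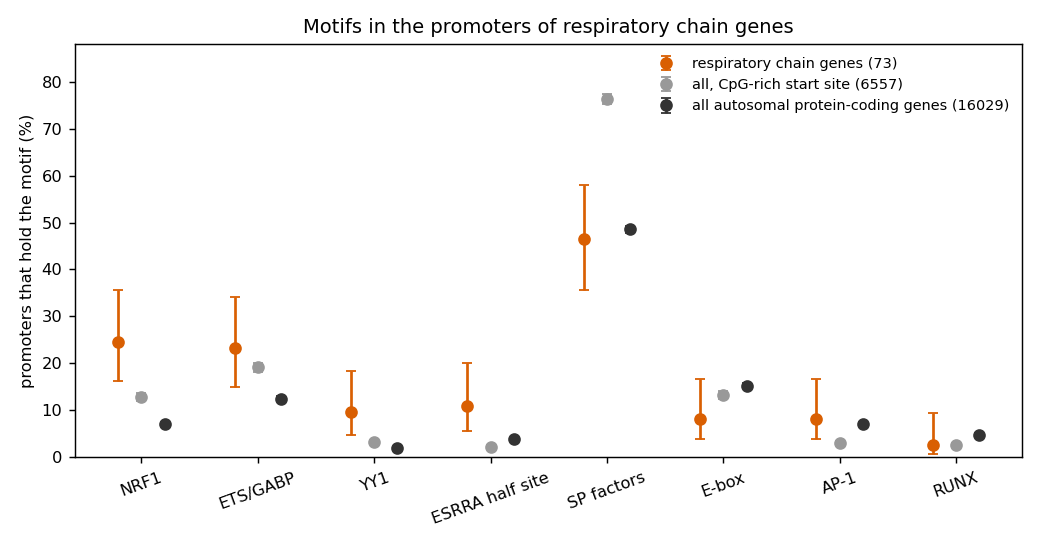
Share of RefSeq promoters (percent, y axis) that hold each motif, for 73 respiratory chain genes, 6557 genes with a CpG-rich start site and 16029 autosomal protein-coding genes, with 95% Wilson intervals as bars. NRF1, YY1 and ESRRA motifs are more frequent in the respiratory chain genes than in both other sets. The SP-factor motif is near the share of all promoters and less frequent than in CpG-rich ones, and only 56.7% of the 90 members are CpG-rich.

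Of the 18 members with an NRF1 motif in the matched promoter, Atp5g2 and Atp5h had a start-site peak. Among all genes, 1131 matched promoters held the motif, and 216 of these belonged to genes with a start-site peak. Ndufs7 is not among the 18, although its start-site peak holds the motif shortly before the start site used here. Its matched RefSeq promoter does not hold that match, so promoters and start sites can differ. Promoters were matched for only 6 of the 10 genes with a start-site peak, which is too few for a comparison of those with and without a peak. Of the 15 start-site peaks themselves, 1, at Ndufs7, held the NRF1 motif in its central 200 bases and none the ETS or YY1 motif, where the upper bound for none is 20.4%. Among all 3051 start-site peaks, these shares were 1.38%, 5.31% and 1.11%. The SP-factor motif was in the centre of 3 of the 15 (20%), against 29.6%. The E-box, ESRRA and AP-1 motifs were in 1 each, against 11.2%, 2.62% and 6.03%, and the RUNX motif in none, against 3.87%.

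Of the 130 peaks at 1 to 50 kb from members, 40 lay within 1 kb of another protein-coding start site. In the remaining 90, the E-box CAGCTG was in the central 200 bases of 18 (20%, 13.0 to 29.4), against 19.1% of all 18969 peaks away from start sites. AP-1 was also in 18 (20%), against 26.2%, and RUNX in 10 (11.1%, 6.15 to 19.3), against 11.7%, and the intervals of these 3 motifs held the share of all such peaks. GGGCGG was in 12 (13.3%, 7.79 to 21.9), against 5.18%, which lies under the interval. The 18969 peaks also include those more than 50 kb from any protein-coding start site. No share was computed for peaks 1 to 50 kb from genes at large, so this difference cannot set the members apart.

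Genes that serve the respiratory chain but do not carry its subunit names had start-site peaks more often than genes at large in the 30-cycle list. Of 57 such genes, listed by function, 14 had a start-site peak (24.6%, 15.2 to 37.1), against 13.8% of all genes and 11.1% of the 90 members, whose interval overlaps theirs. The share was close to the 23.2% of all CpG-rich start sites. After 30 cycles, all 14 had one (24.6%, 15.2 to 37.1), against 11.4% of all genes. The interval held the 19.0% of CpG-rich start sites with a peak in that list, and how many of the 57 are CpG-rich was not computed. After 36 cycles 4 had one (7.02%, 2.76 to 16.7), a share near the 6.29% of all genes. Within 50 kb, 42 had a peak (73.7%, 61.0 to 83.4), against 56.1% of all genes and 67.3% of those with a CpG-rich start site. Their median distance was 20.7 kb, against 38.4 and 24.2 kb.

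The widest of these peaks were at Gabpb1, a subunit of the factor GABP, with 844 bp in both lists, and at Pdss2, for the side chain of ubiquinone, with 669 bp in both lists. After 30 cycles only, peaks of 643, 612 and 557 bp lay at Cox18 and Cox15, which help to assemble complex IV, and at Tfb2m, a mitochondrial transcription factor. Cycs, the gene of cytochrome c, had a peak of 437 bp after 30 cycles and a separate one of 272 bp after 36 cycles. The assembly factor gene Cox20 had a peak of 385 bp after 30 cycles only and one of 336 bp in both lists. Further start-site peaks lay at Nrf1, 343 bp wide, at Cox16, 325 bp wide, and at Lyrm7, 303 bp wide, all after 30 cycles only.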

How the data were processed

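WFS1 ChIP-seq peaks of wildtype C2C12 myoblasts after 30 and 36 sonication cycles were analysed. The authors mapped single-end reads to GRCm38 with NextGenMap, used SAMtools to drop poorly mapped reads, and ran MACS2 on each library by itself. The control of peak calling is not given in the sources used here. The deposited values are peak coordinates (chromosome, start, end), with no score or read count, so depth is unknown and no stricter threshold could be set.

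Lists were joined with bedtools 2.31.1 merge. Genes came from GENCODE mouse release M21, with the start site at the 5′ end of the gene. A second record of Atp5o and 3 X-linked genes were left out. Distances run from the nearest peak edge, and overlap meant at least 1 bp. tRNA genes and sequences came from RefSeq for GRCm38, read with samtools 1.23.1, and sequences are shown outside exons of GENCODE and RefSeq mRNAs. Intervals are Wilson intervals (scipy 1.17.1). No test was run, since each condition had 1 library. The assignment was tested on simulated data for 4833 genes with planted peaks, and 100% were assigned as made, as were 100% of 400 planted motifs.

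The members, gene lists and motifs were chosen with earlier results of these data known. Named were all members with a start-site peak or a peak in the gene, up to 2 per complex with the most peaks within 50 kb (ties included), the isoforms and Sdh genes, the 3 farthest members, and up to 10 of the other factors by peak width. tRNA genes, pseudogenes and Uqcrh were singled out after values were seen. Alternatives were each list alone, peaks of both lists, wider peaks, other distances, peak centres, every transcript start and leaving out assembly factors.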

Additional observations from a re-analysis of the deposited data

Results flagged for a closer look

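The mitochondrial genome also encodes respiratory chain subunits and was not part of the comparisons. It stood out because peaks of the 30-cycle list lay over its genes. Inputs were not used here, so no background level was set beside them. Of its 13 protein-coding genes, 7 lay under peaks of the 30-cycle list, which held 5 peaks on this genome. The genes were mt-Nd1, mt-Nd2, mt-Nd4, mt-Nd5 and mt-Nd6 of complex I, mt-Cytb of complex III and mt-Co1 of complex IV, and 5 of the 7 were covered over their whole length. The 36-cycle list held 1 peak on this genome, which overlapped none of the 13.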

How the results depend on the processing

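Of 41 values under other settings, 27 stayed within 1.5 times of the value in the report and 14 moved further. From the 36-cycle list alone, 1 member had a start-site peak, 3 had a peak in the gene, 36 had one within 50 kb, and the median distance was 66.2 kb. In that list, the median distance of all genes was 80.9 kb. From peaks held by both lists, the values were 1, 1, 29 and 100.3 kb, and from peaks at least as wide as the median, 3, 3, 34 and 78.8 kb. Of all genes, 3.49% had a start-site peak of both lists and 6.56% one at least as wide as the median, against 1.11% and 3.33% of the members. A peak of both lists lay within 50 kb of 28.9% of all genes, against 32.2% of the members. The other values from peaks of both lists and from wider peaks were not computed over all genes. Fewer peaks remain by construction in these settings. Within 10 kb, 19 members had a peak, and 3 had a peak in the gene beyond 1 kb of the start site. The 30-cycle list alone, other limits at the start site, peak centres, every transcript start, leaving out assembly factors and, chosen after seeing the data, both gene records of Atp5o or no peaks over tRNA genes moved no value by more than 1.5 times. Counting every transcript start added Atp5d and Cox7a2l to the members with a start-site peak, and a limit of 2 kb added Uqcrh. No paired analysis was possible because there was only 1 library after 30 cycles and 1 after 36. Without read counts, no value could be scaled for depth, and a gene without a peak was not shown to be without WFS1.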
